A study of Mus musculus with 4 samples.

Results

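The keratins are the intermediate filament proteins of epithelial cells, and each epithelium is known by the pair or pairs it makes. The family was taken here as every probe set with exactly 1 annotated gene symbol of the form Krt, a number and at most 1 letter. That rule gave 48 genes of 18194 named on the array, through 61 probe sets of 34958 with 1 symbol and 45101 in all. One more probe set names Krt14 together with Krt17 and was left out.

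The arrays measured total RNA of mouse eye tissue, labelled retina, from control mice and from transgenic mice with myocilin in the aqueous humor. There were 2 arrays for each group. Control array 2 is, per the labels, a technical repeat of control array 1, and both were averaged into 1 control sample. For the 2 transgenic arrays the number of animals behind them is not stated. The p-values rest on the spread between these 2 arrays, and that spread may be technical. It was pooled over the probe sets tested, so a gene's error reflects its brightness more than its own 2 transgenic values. The control, as 1 sample, added no spread. Strain, age, sex and the promoter of the transgene are not given in the sources used here.

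A keratin filament is built from heterodimers of a type I (acidic) and a type II (basic) keratin, so the members work in pairs. Krt5 and Krt14 fill basal cells of stratified epithelia, Krt8 and Krt18 simple epithelia, and Krt4 and Krt13 the upper layers of moist stratified epithelia such as the conjunctiva. Krt12 is the type I keratin typical of corneal epithelium, and a further branch of the family forms hair and its root sheath. A neural retina is not an epithelium of this kind, and its cells are not known for stratified keratins.

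The label retina was checked against marker genes. Every array had a mean of 150.0 once the lowest and highest 2% of its probe sets were set aside, and this trimmed mean serves below as the line between bright and dim. Of 9 rod and cone genes with a probe set, 0 lay above it, with Sag, the arrestin of rods, highest at a mean signal of 134. Rpe65, Rgr and Rlbp1 of the pigment epithelium list were above it, and so were 4 of 4 genes of the corneal stroma list. Of these 4, Aldh3a1 is not particular to stroma. The 3 markers of corneal and surface epithelium, Krt12, Krt5 and Krt14, were bright at mean signals of 12151, 10034 and 2912.

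Promoters are shown for bright keratins of the classes on which the results below turn. RefSeq windows on GRCm38.p6 were matched by symbol for 32 of the 48 genes, with 17 genes on chromosome 11 and 15 on chromosome 15. Chromosome 15 held the type II genes and Krt18, the type I partner of Krt8, which runs on the opposite strand to Krt8. The 150 bases before the start are printed 5′ to 3′ for the corneal keratin Krt12, the basal keratin Krt5, the mucosal keratins Krt13 and Krt78 and the simple pair Krt8 and Krt18. Capitals mark ATAAA on the gene's strand, the core of a TATA element. For Krt13 the more upstream of its 2 windows is shown.
Krt12, chr11:99422260-99422409, minus strand: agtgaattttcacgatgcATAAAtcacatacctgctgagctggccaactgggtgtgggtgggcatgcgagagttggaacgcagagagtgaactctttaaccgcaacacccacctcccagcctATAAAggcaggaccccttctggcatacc
Krt5, chr15:101712906-101713055, minus strand: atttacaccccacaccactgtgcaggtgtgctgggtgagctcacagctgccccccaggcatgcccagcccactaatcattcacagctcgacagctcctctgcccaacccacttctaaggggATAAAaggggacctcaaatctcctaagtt
Krt13, chr11:100121567-100121716, minus strand: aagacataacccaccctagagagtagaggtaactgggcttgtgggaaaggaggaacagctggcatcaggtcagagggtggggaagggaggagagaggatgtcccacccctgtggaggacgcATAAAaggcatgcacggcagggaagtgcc
Krt78, chr15:101954288-101954437, minus strand: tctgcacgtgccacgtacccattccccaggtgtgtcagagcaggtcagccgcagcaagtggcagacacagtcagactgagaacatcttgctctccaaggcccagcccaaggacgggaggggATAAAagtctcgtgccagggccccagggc
Krt8, chr15:102004343-102004492, minus strand: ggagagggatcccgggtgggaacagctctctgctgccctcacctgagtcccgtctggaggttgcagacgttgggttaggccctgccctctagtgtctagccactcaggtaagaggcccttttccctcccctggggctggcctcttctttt
Krt18, chr15:102028066-102028215, plus strand: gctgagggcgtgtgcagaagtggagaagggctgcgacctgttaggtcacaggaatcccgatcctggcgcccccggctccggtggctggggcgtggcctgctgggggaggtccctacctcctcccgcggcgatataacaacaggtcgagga

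The core ATAAA, whose letters were chosen after the sequences had been read, stood in 24 of 33 keratin windows (72.7%) against 15.1% of all 32851 windows of this length. In the Krt5, Krt13 and Krt78 windows it began 29 bases before the start, and in Krt12 its nearer match began 28 bases before. The Krt8 and Krt18 windows held no such letters. The full TATAAA, which contains the core, was in 14 of 33 windows (42.4% against 4.84%), Krt12 among them. CACCC, the letters of the KLF box searched on both strands, was in 20 of 33 (60.6% against 37.4%), with 3 matches each in the printed Krt12 and Krt13 windows. GGGCGG, the GC box on both strands, was in 2 of 33 (6.06% against 28.6%), those of Krt7 and Krt75. TGANTCA, the palindrome bound by AP-1, was in 1 (3.03% against 4.24%) and GCCNNNGGC, the palindrome bound by AP-2, in 3 (9.09% against 9.61%). Keratin copies share ancestry, so these windows are not independent, and a match is no proof of a site.

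Of the 48 keratin genes, each read from its brightest probe set, 20 were bright, and 11 of these belong to cornea, conjunctiva, basal layers and simple epithelia. All 3 basal keratins, 3 of 4 conjunctival and mucosal keratins, 4 of 5 simple keratins, 5 of 5 stress and companion layer keratins and Krt12 were bright. Of 6 keratins of epidermal differentiation 2 were, and of 5 in no such class 2 were. None of 7 inner root sheath keratins (0 of 7) and none of 12 hair shaft keratins (0 of 12) was bright, with highest mean signals of 25.5 for Krt72 and 114 for Krt81. Signal is not per length or per molecule, so keratins are not ranked against each other. Krt16, at a mean signal of 150.3, lay just inside the line and Krt81, at 114, just outside.

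**Figure D1:**
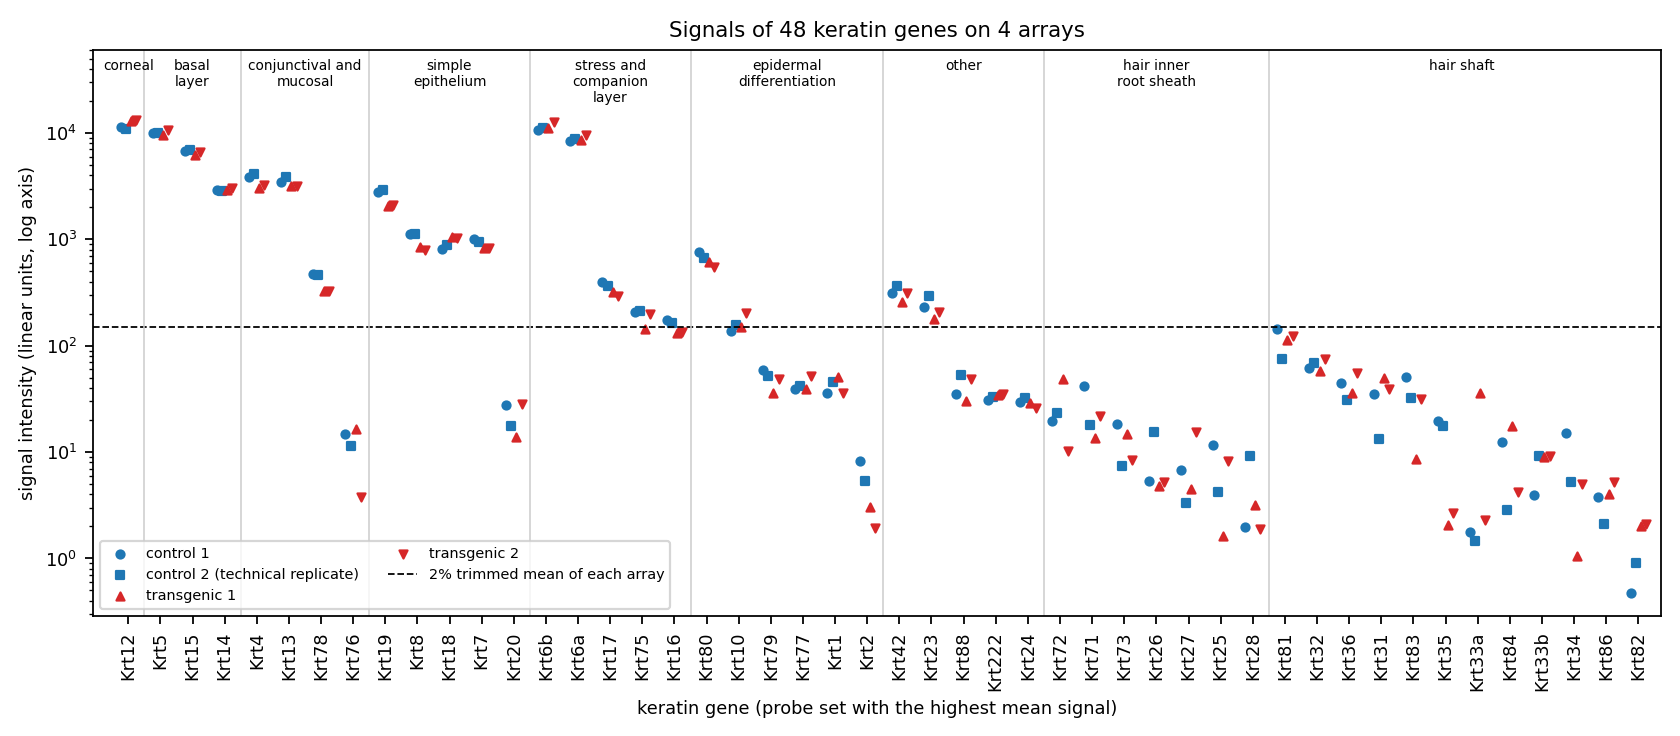
Signal intensity (linear units, log axis) of the 48 keratin genes on each of the 4 arrays, grouped by class, with the trimmed mean of 150.0 as a dashed line. Points are single arrays. The 20 bright genes have means above the line, though single arrays of Krt16, Krt10 and Krt75 lie below it, while all inner root sheath and hair shaft keratins lie below it and scatter.

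Between the groups, no keratin probe set passed the test: 0 of 40 tested had a limma adjusted p under 0.05, against 0.0777% of all 27022 probe sets tested (0.0555% higher and 0.0222% lower). At an unadjusted p under 0.05 there were 12 of 40, of which 10 were lower and 2 higher in the transgenic samples, against 7.06% of all probe sets, 2.92% lower and 4.14% higher. Both transgenic arrays lay below both control arrays on 20 of the 40, against a background of 23.6%, and above them on 6, against 21.1%, which makes 26 without overlap against 44.7%. Some genes enter these counts through several probe sets. Read from the brightest probe set of each gene, 8 of 29 had an unadjusted limma p under 0.05, 6 lower and 2 higher. Of these 29 genes, 14 were lower and 5 higher without overlap. The test used log2(signal + 16), a scale that understates differences of dim probe sets, on which log2 differences below are transgenic minus control. It covered probe sets above the 40th percentile of mean log2 value, at a signal of about 30.0, so 21 keratin probe sets were not tested.

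The count of lower keratins depended on how the arrays were scaled. The 40 tested probe sets split into 6 higher and 20 lower without overlap on signals as deposited, into 4 and 26 after quantile normalization and into 11 and 21 after centring on the median. Under these scalings 23.6%, 21.8% and 19.6% of all probe sets tested were lower without overlap, and 21.1%, 22.4% and 23.9% higher. The 27.5% of keratin probe sets that were higher after median centring is near that background. The median log2 difference of the 29 tested genes was −0.09, against −0.02 for all probe sets tested. For the 20 bright genes it was −0.23, against −0.00 for all probe sets of such brightness, with 13 lower and 3 higher without overlap, against 25.2% and 27.5% of those probe sets, and 4 overlapping. A lower signal in such bulk tissue can come from fewer cells of a type or from less RNA per cell, which cannot be told apart.

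**Figure D2:**
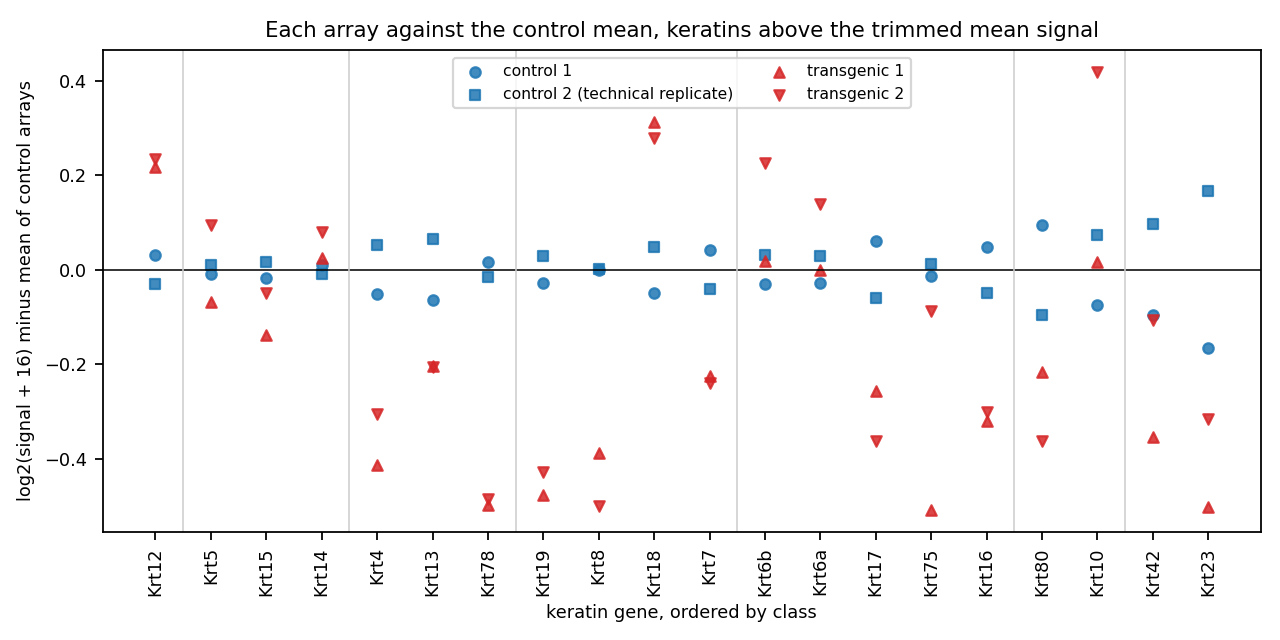
Each array's log2(signal + 16) minus the mean of the 2 control arrays (vertical axis) for the 20 bright keratins, ordered by class. Points are single arrays; both transgenic arrays lie below both control arrays for 13 genes, including Krt4, Krt13, Krt78, Krt19, Krt8 and Krt7, and above them for Krt12, Krt18 and Krt14.

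Krt12, the corneal keratin, was brighter on both transgenic arrays by a small amount that did not pass the test. Its control signals were 11441 and 10972 and its transgenic signals 13020.3 and 13173, without overlap. Its log2 difference was 0.22 ± 0.09 (SE; limma adjusted p = 0.633). A second Krt12 probe set gave 9616 and 9514 in control and 10275 and 12149 in transgenic samples, with a log2 difference of 0.22 ± 0.11 (adjusted p = 0.738). After quantile normalization the log2 difference of the first was 0.07.

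On signals as deposited, the log2 differences of the basal keratins were close to or below their errors. Krt5, the type II keratin of basal cells, had control signals of 9917 and 10045 and transgenic signals of 9517 and 10657, with the transgenic values on either side of the control ones (0.01 ± 0.10, log2, SE; limma adjusted p = 0.995). Krt14, its type I partner, had 2877 and 2841 in control and 2906 and 3023 in transgenic samples (0.05 ± 0.10; adjusted p = 0.967). Its second bright probe set stood at 0.01 and overlapped, and a dim one with control signals of 53.1 and 49.5 stood at −0.51 ± 0.35. Krt15, a type I keratin of basal and limbal cells, had 6810.4 and 6972 in control and 6261 and 6662 in transgenic samples, lower on both by a log2 difference of −0.09 ± 0.09 (adjusted p = 0.919). After quantile normalization Krt15 stood at −0.28 and Krt5 at −0.18. Krt5 relative to Krt14 within an array differed by −0.04 between the groups, and over the 4 pairings of 1 array from each group by −0.11 to 0.03.

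The conjunctival and mucosal keratins were lower on both transgenic arrays for the 3 genes that were tested. Krt4, the type II keratin of moist stratified epithelium, had signals of 3862 and 4149 in control and 3003 and 3237 in transgenic samples, without overlap (−0.36 ± 0.10, log2, SE; limma adjusted p = 0.397). A second Krt4 probe set had 1922 and 2335 in control and 1418 and 1460.0 in transgenic samples and gave the lowest adjusted p of the family (−0.55 ± 0.10; adjusted p = 0.166). Krt13, the type I partner of Krt4, had 3493 and 3825 in control and 3172 and 3168 in transgenic samples (−0.20 ± 0.10; adjusted p = 0.722).

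The other probe sets of Krt13 pointed the same way, at −0.45 ± 0.16 and −0.30 ± 0.15. Both were dimmer, at mean signals of 369 and 342, and may share probes with further transcripts. Krt78, a type II keratin of stratified epithelia, had signals of 471 and 461 in control and 325 and 328 in transgenic samples, a wide gap beside the spread within each group (−0.49 ± 0.14; limma adjusted p = 0.416). That spread is technical in control and may be so in transgenic samples. The fourth gene of the class, Krt76 of the palate, was dim and not tested. With pairs chosen after their values were seen, Krt12 relative to Krt4 within an array was higher in transgenic samples by 0.58 on the log2 scale, and over the 4 array pairs by 0.46 to 0.71. Krt12 relative to Krt13 was higher by 0.43, with array pairs from 0.32 to 0.53. Such ratios within an array do not depend on a constant factor between arrays.

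Goblet cells are the secretory cells of the conjunctiva, and their 5 markers were mostly dim. Their summed signal was 509.99 and 523 in control and 465 and 476 in transgenic samples, and this gap came from Tff1, the only bright one. Tff1 stood at −0.23 ± 0.16 (limma adjusted p = 0.839), while Agr2 stood at 0.11 ± 0.21 and overlapped between the groups, as did the dim Spdef and Tff3. Muc5ac, the gel-forming mucin of goblet cells, lay at the dim end with a mean signal of 25.4, and overlapped too. The summed signal of the 4 genes of the corneal stroma list was 21213 and 20370.0 in control and 25824 and 27731 in transgenic samples. A large part of it was Aldh3a1, which is not particular to stroma, with 10523 and 10439 in control and 10541 and 12158 in transgenic samples. All 4 were higher on both transgenic arrays, beside 27.5% of all bright probe sets tested, though Aldh3a1 only by 0.11 ± 0.10. By limma 1 of the 4 passed, beside 0.0777% of all probe sets tested. It was Kera, which encodes keratocan (1.54 ± 0.11; adjusted p = 0.000286). This call, like all others, is lost when dim features are kept in the fit or its intensity trend is left out. Under these settings limma called 0 probe sets, and 2181 and 1059 had an unadjusted p under 0.05. The part of stroma or goblet cells in the keratin differences was not tested.

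Among the simple keratins, Krt19, Krt8 and Krt7 were lower and Krt18 higher on both transgenic arrays, and none passed the test. Krt19, a type I keratin of simple epithelia that the conjunctiva and limbus also make, had signals of 2799 and 2913 in control and 2048 and 2119 in transgenic samples, without overlap (−0.45 ± 0.10, log2, SE; limma adjusted p = 0.253). Krt8, the type II simple keratin, had 1117 and 1118 in control and 850.4 and 785 in transgenic samples (−0.44 ± 0.12; adjusted p = 0.368). Its other probe sets stood at −0.63 ± 0.13 (adjusted p = 0.221) and −0.51 ± 0.15, so all 3 were lower without overlap. Those other sets may share probes with further transcripts.

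Krt18, the type I partner of Krt8, went the other way. It had signals of 818 and 877 in control and 1055 and 1030.5 in transgenic samples, without overlap (0.29 ± 0.11; limma adjusted p = 0.623). Krt18 relative to Krt8 within an array was higher in transgenic samples by 0.74 on the log2 scale, with the 4 array pairs between 0.65 and 0.83, while the 2 control arrays differed in it by 0.10 and the transgenic arrays by 0.08. This pair too was chosen after its values were seen.

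The retinal pigment epithelium is a simple epithelium that also makes Krt8 and Krt18. Its 4 marker genes summed to 2006 and 1839 in control and 3483 and 3295 in transgenic samples. Rpe65, the visual cycle isomerase, rose by 1.24 ± 0.13 (log2, SE; limma adjusted p = 0.00581), and Rgr, an opsin of the same tissue, by 1.06 ± 0.12 (adjusted p = 0.00699), while Best1 was dim. Both calls are lost without the filter or without the intensity trend. Krt18 was higher but Krt8 was lower on the same arrays, and the part of this tissue in either difference was not tested. Krt7, a type II keratin of ducts and other simple epithelia, had 999.8 and 943 in control and 828 and 819.6 in transgenic samples (−0.23 ± 0.11; adjusted p = 0.747). The fifth, Krt20 of intestinal epithelium, was dim and not tested.

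**Figure D3:**
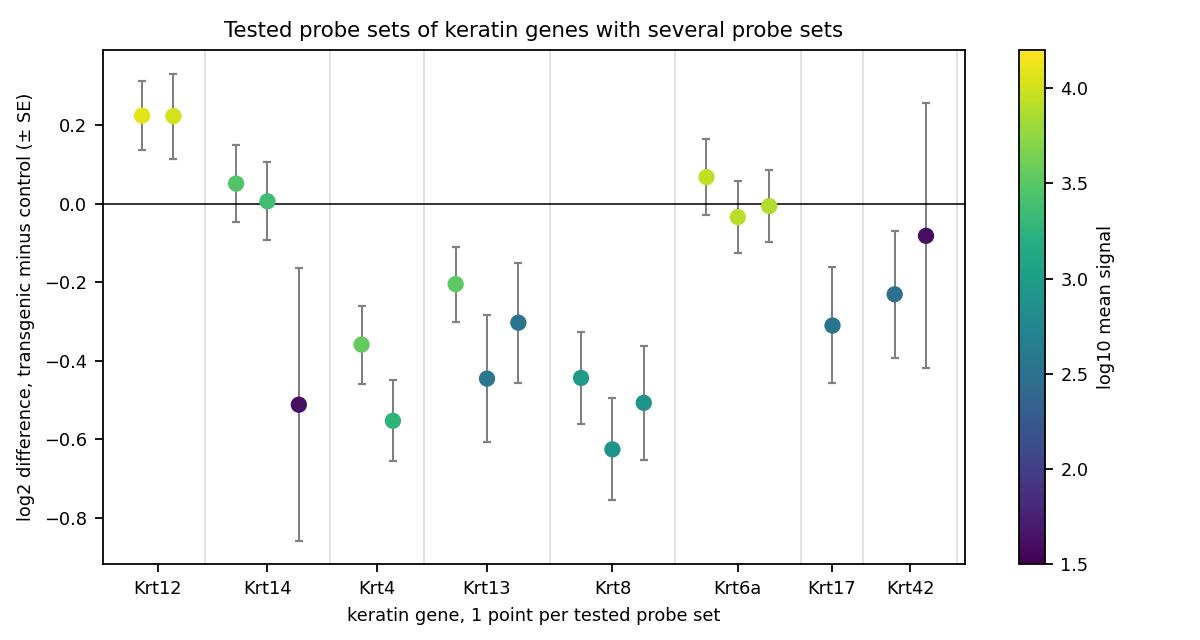
Log2 difference, transgenic minus control, with its standard error (vertical axis) for each tested probe set of the 8 bright keratin genes with several probe sets (for Krt17, 1 was tested), coloured by log10 mean signal. All points of Krt4, Krt13 and Krt8 lie below 0 and both of Krt12 above; those of Krt6a lie close to 0.

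The keratins of stress and the hair companion layer fell into a very bright pair that overlapped between groups and 3 dimmer genes that were lower. Krt6a and Krt6b, near-identical type II keratins known from wounded epithelium, may share signal between their probe sets. Krt6b had signals of 10679 and 11141 in control and 11039 and 12749.9 in transgenic samples (0.12 ± 0.10, log2, SE; limma adjusted p = 0.893). Krt6a had 8441 and 8781 in control and 8598 and 9474 in transgenic samples (0.07 ± 0.10; adjusted p = 0.955), and its other probe sets stood at −0.03 and −0.01.

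Krt16 and Krt17 are type I keratins induced with Krt6 in stressed epithelium, and both were lower on both transgenic arrays. Krt17 had signals of 398 and 365 in control and 317 and 293 in transgenic samples (−0.31 ± 0.15; limma adjusted p = 0.732). A second Krt17 probe set lay below the filter and overlapped, with 3.78 and 29.7 in control and 17.7 and 17.2 in transgenic samples. Its log2 difference was 0.16, and the mean over both Krt17 probe sets was −0.077. Krt16 had 174 and 162 in control and 131 and 133 in transgenic samples (−0.31 ± 0.20; adjusted p = 0.823). Krt75, the type II keratin of the companion layer, had 209 and 213 in control but 144 and 198 in transgenic samples, so its difference of −0.30 ± 0.21 rested mostly on transgenic array 1, without which it was −0.088.

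Keratins of epidermal differentiation were mostly dim. Krt80, a type II keratin of differentiating epithelia, had signals of 761 and 664 in control and 609 and 549.6 in transgenic samples, lower without overlap (−0.29 ± 0.13, log2, SE; limma adjusted p = 0.684). Krt10, the type I keratin of the suprabasal epidermis, had 139 and 155 in control and 149 and 201 in transgenic samples and overlapped (0.22 ± 0.21). Without transgenic array 2 its difference was 0.017. Its partner Krt1 was dim at 35.7, 45.9, 50.3 and 36.0 on the 4 arrays in the same order. Lor, which encodes the cornified envelope protein loricrin, had 38.7 and 90.6 in control and 122 and 174 in transgenic samples (1.08 ± 0.25; adjusted p = 0.273). The 5 genes of the cornified skin list summed to 263 and 352 in control and 394 and 502 in transgenic samples. Krt10 itself is in this sum, as is Krt1, and the part of skin in the Krt10 difference was not tested.

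Of the keratins in no class, Krt23 and Krt42 were bright and lower on both transgenic arrays. Krt23, a type I keratin, had signals of 231 and 295 in control and 179.7 and 207 in transgenic samples (−0.41 ± 0.17, log2, SE; limma adjusted p = 0.671), and without control array 2 it stood at −0.24. Krt42, also of type I, had 314 and 361 in control and 260.2 and 312 in transgenic samples, a gap much narrower than the spread within either group (−0.23 ± 0.16, and −0.13 without control array 2 or −0.11 without transgenic array 1). A second Krt42 probe set was dim, with 39.3 and 43.9 in control and 37.3 and 39.4 in transgenic samples. It overlapped between the groups (−0.08 ± 0.34), so the bright and lower reading of Krt42 rests on its brightest probe set.

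The 28 dim genes had mean signals from 1.38 to 114, and 9 of them were tested. Krt31, a type I hair shaft keratin, had the largest log2 difference of the tested genes, 0.64 ± 0.36 (limma adjusted p = 0.792), from signals of 35.4 and 13.4 in control and 49.9 and 39.3 in transgenic samples. Its 2 control arrays, technical replicates, differed from each other by 0.81 on that scale, and its difference was 0.23 without control array 2 and 1.04 without control array 1. The median absolute log2 difference between the control arrays was 0.29 over the dim genes and 0.07 over the bright ones, and between the transgenic arrays 0.31 and 0.11. Krt33a shows the same scatter, with 1.76 and 1.47 in control and 36.0 and 2.32 in transgenic samples. Krt35 scattered less, with 19.4 and 17.7 in control and 2.07 and 2.66 in transgenic samples (log2 difference −0.91). It lay below the filter and was not tested. The remaining hair keratins were dim and mostly not tested, so no order is read from them. Keratin-associated proteins, which fill the hair shaft between keratin filaments, were dim for all 34 genes with a probe set, with 3 tested. By limma 0 of these passed and 0 had an unadjusted p under 0.05, beside a background of 0.0777% and 7.06%.

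Genes that anchor keratin filaments or regulate epithelial programmes lay mostly lower on the transgenic arrays, and none passed the test. Their list was chosen with earlier results of these data known, so its counts are a description only. Of the 21 genes of this list, all of them tested, 15 were lower without overlap and 1 higher, beside 23.6% and 21.1% of all probe sets tested. By limma 0 of 21 passed, beside 0.0777% of all probe sets tested, and 12 had an unadjusted p under 0.05, all lower, beside 2.92% lower and 7.06% in either direction. The median log2 difference was −0.32. It was −0.38 after quantile normalization and −0.29 after median centring, with 15 lower under each, beside 21.8% and 19.6% of all probe sets tested. Of the 21 genes 19 were bright. Among all bright probe sets tested, 25.2% were lower and 27.5% higher without overlap on signals as deposited. The 4 vascular and muscle markers summed to 2709 and 2906 in control and 3736 and 3669 in transgenic samples, with Acta1 and Myh2 of skeletal muscle at 0.38 ± 0.10 (adjusted p = 0.347) and 0.48 ± 0.12 (adjusted p = 0.308) and the vascular Cdh5 and Pecam1 overlapping. The part of muscle in these differences was not tested.

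Among them Eppk1, which encodes the keratin-binding plakin epiplakin, had signals of 425 and 398 in control and 256 and 219 in transgenic samples (−0.76 ± 0.16, log2, SE; limma adjusted p = 0.231). Dst, the gene of the hemidesmosomal plakin BPAG1, had 772 and 759 in control and 452 and 520.3 in transgenic samples (−0.64 ± 0.14; adjusted p = 0.231). Pkp1, a desmosomal plakophilin, had 1872 and 1703 in control and 1273 and 1091 in transgenic samples (−0.59 ± 0.12; adjusted p = 0.217). Jup, the desmosomal plakoglobin, had 629.9 and 635 in control and 424 and 461 in transgenic samples (−0.50 ± 0.13; adjusted p = 0.372). For these 4 genes, named for their largest differences, each group's arrays lay close together beside the gap. That closeness is technical in control and may be so in transgenic samples. The member higher on both transgenic arrays was Pkp2, at 0.19 ± 0.16.

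Intermediate filament genes outside the keratins lay on both sides. Of 15 genes 13 were tested, with 5 lower and 3 higher without overlap, beside 23.6% and 21.1% of all probe sets tested, and a median log2 difference of −0.12. By limma 0 of 13 passed and 1, a share near the background of 7.06%, had an unadjusted p under 0.05, Bfsp2, a lens filament gene with 12.7 and 32.5 in control and 50.01 and 51.9 in transgenic samples (0.84 ± 0.34; adjusted p = 0.643). The summed signal of the lens markers was 80.3 and 137 in control and 434 and 420.0 in transgenic samples. Bfsp2 itself is in this sum, and the part of lens in the Bfsp2 difference was not tested. Vim, the vimentin gene of mesenchymal cells and the brightest of the list, had 3970.2 and 4493 in control and 4249.6 and 4666 in transgenic samples and overlapped. Lmnb2, of the nuclear lamina, stood at −0.51 ± 0.34. Ina and Nefl, both neuronal filament genes, stood at −0.34 ± 0.31 and −0.34 ± 0.26.

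**Figure D4:**
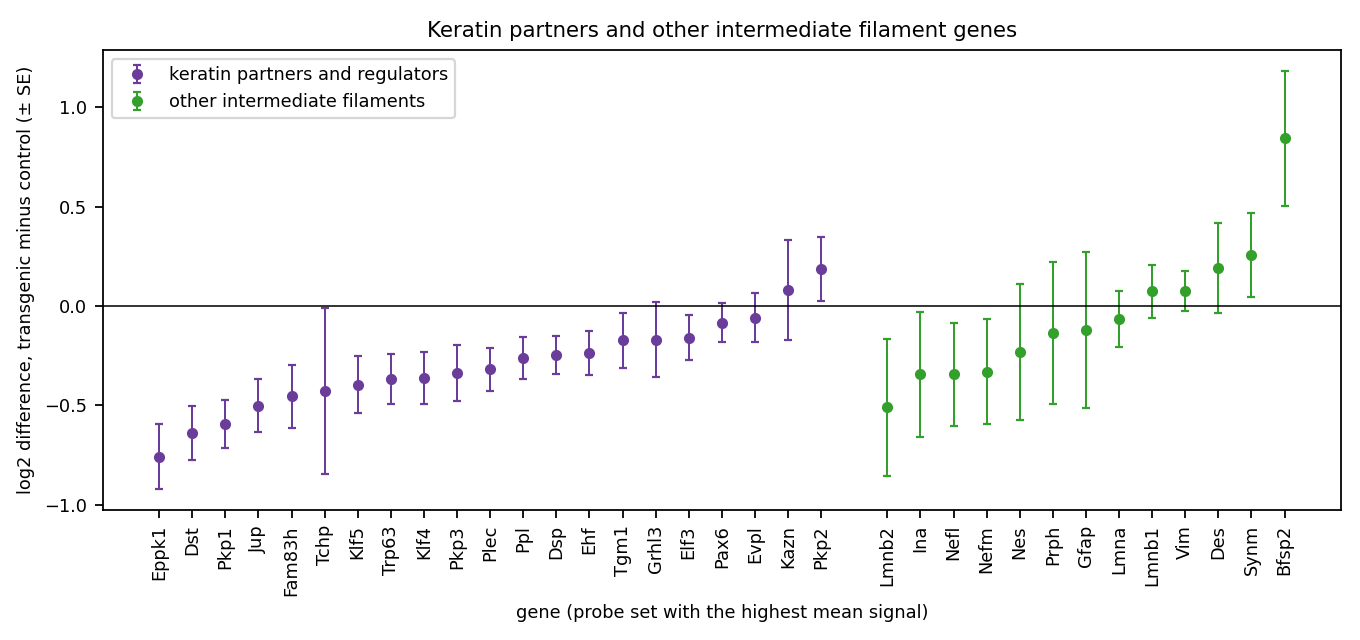
Log2 difference, transgenic minus control, with its standard error (vertical axis) for the 21 keratin partners and regulators and the 13 tested intermediate filament genes outside the keratins. Of the partners, all but Pkp2 and Kazn lie below 0; the other filament genes lie on both sides.

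Among the bright keratins, 4 changed direction with the scaling. Krt5, Krt14, Krt6a and Krt6b lay above 0 on signals as deposited and below 0 after quantile normalization, at −0.18, −0.05, −0.14 and −0.06. Krt4, Krt13, Krt78, Krt19, Krt8 and Krt7 lay below 0 and Krt18 above 0 under all 3 scalings. By limma, Krt19 passed after quantile normalization (−0.54; adjusted p = 0.0355), as did the second Krt4 probe set after quantile normalization (−0.61; adjusted p = 0.0347) and after median centring (−0.52; adjusted p = 0.0223). One Krt8 probe set passed after median centring (−0.60; adjusted p = 0.0440).

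**Figure D5:**
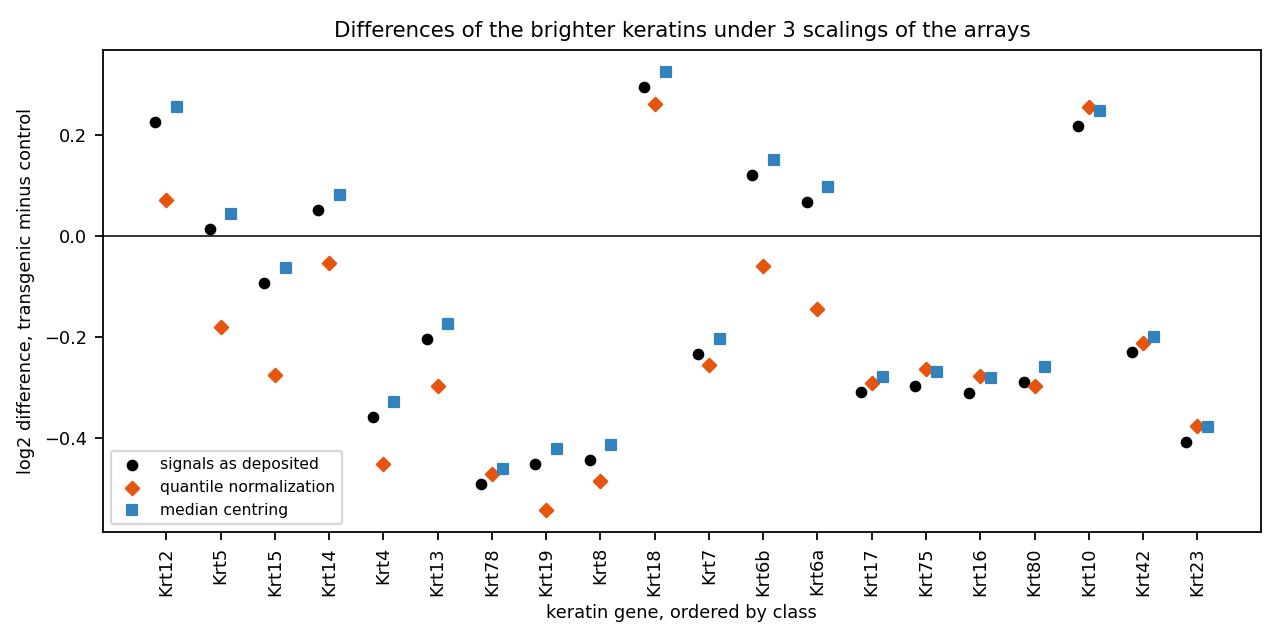
Log2 difference, transgenic minus control (vertical axis), of the 20 bright keratins with signals as deposited, after quantile normalization and after centring on the median. Quantile normalization moves the brightest genes down, Krt12 to 0.07 and Krt5 to −0.18, and leaves the dimmer ones nearly in place.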

How the data were processed

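Expression was measured on 4 one-colour oligonucleotide arrays. The authors deposited a linear signal intensity for each of 45101 probe sets, used as deposited because the 2% trimmed means were equal. The software behind them is not given in the sources used here. Gene names came from the platform's annotation table, and no keratin symbol changed through its gene identifier. Array controls (64) were left out.

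Values were transformed as log2(signal + 16), the control arrays averaged as 1 sample, and probe sets above the 40th percentile fitted with limma 3.58.1 in R 4.3.3 (intensity trend, two-sided, Benjamini-Hochberg over 27022 probe sets, threshold 0.05). The code was tested on simulated data. The fit had 1 residual and 10.3 prior degrees of freedom and assumes that the lone control sample varies like the transgenic ones. The number of arrays limits the precision.

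Each gene's values come from its brightest probe set on average. Bright keratins are named with every array's value, with the 4 largest differences among tested keratins and up to 4 genes of each other list. The members, classes and lists were chosen with earlier results of these data known. Alternatives covered scaling, pseudocounts of 1 and 64, the filter, separate arrays, the replicate block, moderation and leaving out each array. Of the keratin probe sets, 9 carry the suffix x, 2 the suffix s and 5 the suffix a, which mark probes shared between transcripts. Those with x include the brightest sets of Krt4, Krt14 and Krt42 and the other sets of Krt13 and Krt8.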

Additional observations from a re-analysis of the deposited data

How the results depend on the processing

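The count of probe sets called among all tested was 21, and moved to 39 after quantile normalization, 177 after median centring, 135 with the 4 arrays as separate samples, and 0 without the filter or without the intensity trend, where 2181 and 1059 had an unadjusted p under 0.05 in limma. Without control replicate 1 or 2 it was 14 or 33. The count of keratin probe sets called was 0, and 2 after quantile normalization (Krt19, Krt4), 2 after median centring (Krt4, Krt8) and 3 as separate samples (Krt19, Krt4, Krt8). The count for the partner, filament and keratin-associated lists was 0, and 1, 1 and 3 under the same settings (Dsp, then Pkp1, then Dst, Eppk1 and Pkp1). Leaving out either control array left both counts at 0, and leaving out a transgenic array leaves no residual degrees of freedom and so no test. Treating technical replicates as samples narrows the spread.

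With the replicate number as a block, 1740 probe sets, 13 keratin probe sets and 13 of the listed genes were called. The labels give no pairing by number, and the deviations of same-numbered arrays from their group means had a correlation of 0.0955 across probe sets, so the block is not used.

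The median log2 difference of the keratins was −0.09, −0.18 after quantile normalization, and −0.14 to −0.05 with 1 array left out. Directions reversed for Krt5 (−0.18), Krt6a (−0.14), Krt6b (−0.060) and Krt14 (−0.053) after quantile normalization, for Krt14 as the mean of its probe sets (−0.15), and without transgenic replicate 2 for Krt5 (−0.069, against 0.094 without replicate 1) and Krt6a (−0.0018, against 0.14). The dimmest keratin probe sets, under a signal of about 30.0, were left out by the filter. Without it all 61 were fitted and 0 were called by limma. Of the 61, 14 had an unadjusted p under 0.05, beside 2181 of all 45037 probe sets.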
